A study of Mus musculus with 24 samples.

Results

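The genes described here are 34 cell division genes, chosen by name: proliferation markers, enzymes of DNA synthesis, and regulators of mitosis. They were read in 24 mouse left ventricles on 1-colour microarrays that gave 28235 genes with a measurable probe. Of the 34 genes, 33 had a probe well above background on at least 6 of the 24 arrays. The exception was Aurkb, the kinase of the chromosomal passenger complex, whose probe was well above background on 0 of 24 arrays.

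The study compared hearts of diabetic and vehicle-treated male mice with or without extra GLUT4, a glucose transporter, from a transgene that is induced and runs only in cardiomyocytes, and asked what added glucose uptake does to a diabetic heart. There were 4 groups of 6 mice. CON VEH mice lacked the transgene and received citrate buffer, the vehicle (VEH). CON STZ mice lacked it and received streptozotocin (STZ), which kills the insulin-making cells of the pancreas, in 5 daily doses of 55 mg/kg. mG4H VEH and mG4H STZ mice carried the transgene and received buffer or STZ, and in the study's design it was induced 2 weeks after STZ, with 2 weeks of induction. The labels do not say what induced the transgene, whether CON mice received it too, or the strain and age. Each group held mice with a sibling in another group, and the labels do not tell which mice were siblings.

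Cells that divide switch on their genes in waves. Around the start of DNA synthesis, cyclin E and E2F factors raise the genes of nucleotide synthesis and of the MCM helicase, and before mitosis FOXM1 and B-MYB raise cyclins, kinases and kinetochore genes together. In resting cells the DREAM complex holds both sets silent. Many mitotic promoters carry CCAAT boxes, bound by NF-Y, and a CHR element, the site through which DREAM acts. Adult cardiomyocytes seldom divide, so in a heart these transcripts are usually credited to endothelial cells, fibroblasts and leukocytes. The arrays read whole ventricle: they do not say which cells the transcripts came from, and fewer dividing cells cannot be told apart from less of these RNAs per cell.

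Sequence in front of the genes is given because most of the 33 varied together from mouse to mouse, as described further on. RefSeq's promoter table (GRCm38.p6) held 29 of the 34 genes. In the 250 bases before the start, on either strand, the CCAAT box (CCAAT) was found in 24 of 29 genes (82.8%), against 37.5% of the 27025 genes of the table. Of the 29, 15 held at least 2 copies, against 11.5% of the table. The CHR element (TTTGAA or TTCGAA) was found in 11 of 29 (37.9%, against 19.6%), and E2F letters (TTTCCCGC, TTTCGCGC, TTTGCCGC or TTTGGCGC) in 3 of 29 (10.3%, against 2.2%), namely Cdk1, Mcm5 and Mcm6. The 150 bases before the start of 5 members follow, 5′ to 3′ along the gene, with each match to one of these motifs in capitals; matches that overlap form a single run. Ccnb2, Ube2c and Cdc20 stand for the mitotic genes, Mcm6 for the replication genes, and Ccne1 is the only member that passed the test between groups.

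Ccnb2, chr9:70421555-70421704, minus strand: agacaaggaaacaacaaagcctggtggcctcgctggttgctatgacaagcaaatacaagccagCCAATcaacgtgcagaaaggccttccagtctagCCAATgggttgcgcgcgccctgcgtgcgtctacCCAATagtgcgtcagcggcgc

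Ube2c, chr2:164769779-164769928, plus strand: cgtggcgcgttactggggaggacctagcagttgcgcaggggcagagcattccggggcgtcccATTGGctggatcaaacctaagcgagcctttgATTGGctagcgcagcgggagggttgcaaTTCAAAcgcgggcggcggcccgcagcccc

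Cdc20, chr4:118437344-118437493, minus strand: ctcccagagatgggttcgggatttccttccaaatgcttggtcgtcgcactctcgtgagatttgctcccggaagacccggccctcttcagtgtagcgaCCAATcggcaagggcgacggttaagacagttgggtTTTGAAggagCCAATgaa

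Mcm6, chr1:128359706-128359855, minus strand: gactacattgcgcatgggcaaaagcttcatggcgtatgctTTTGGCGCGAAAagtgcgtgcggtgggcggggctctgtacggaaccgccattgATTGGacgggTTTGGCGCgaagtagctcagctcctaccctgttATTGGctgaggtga

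Ccne1, chr7:38107491-38107640, minus strand: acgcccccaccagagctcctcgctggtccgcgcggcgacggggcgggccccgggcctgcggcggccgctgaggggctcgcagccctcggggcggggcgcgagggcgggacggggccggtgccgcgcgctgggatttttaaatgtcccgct

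Ccnb2 carried 3 CCAAT boxes in this window. In Ube2c there were 2 in the reverse direction and a reverse CHR element, and in Cdc20 the CHR element lay between 2 CCAAT boxes. Mcm6 had E2F letters and reverse CCAAT boxes. None of the searched letters occurred in the Ccne1 window, which says only that these letters are not in this stretch.

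Each value below is the log2 of the deposited signal relative to the 75th percentile of its own array, so 0 is the level of that percentile. A probe's value was compared only with the same probe's value in other mice. The 75th percentile itself ranged from 369.8 to 583.2 signal units over the arrays, and the share of spots well above background was 58.5% to 76.3%. Blood glucose, in the labels' unstated unit, was 117 to 164 in the VEH mice and 500 to 601 in the STZ mice. The array's Slc2a4 (GLUT4) probe did not show the transgene: mG4H VEH stood at 6.54 ± 0.11 (SD, n = 6) and CON VEH at 6.73 ± 0.15 (SD, n = 6), a difference of -0.20 (limma adjusted p = 1), and whether the probe reads the transgene is not given in the sources used here, so genotypes are as labelled. Each of slides 1 to 3 carried all 4 groups. Slide 4, with a scan date of its own, carried only mouse 3 of CON VEH and mouse 3 of mG4H VEH. Over all genes, with group means removed, mice of different groups on the same slide had a median correlation of 0.297 (61 pairs), and those on different slides -0.123 (155 pairs).

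After STZ most of the cell division genes were lower on average in both genotypes, and 1 of them passed the test. In CON mice 30 of 33 had a negative log2 fold change (STZ over VEH), with a median of -0.30, while over all 28235 genes 55.2% were positive and the median was 0.027. In mG4H mice 30 of 33 were also negative, with a median of -0.49, beside 0.061 over all genes (60.5% positive). With both genotypes averaged, the median was -0.39, beside 0.048. In limma's test over all genes (Benjamini-Hochberg adjusted p under 0.05), 1 member, Ccne1, fell in CON, where 2.3% of all genes were called lower and 3.96% called in either direction. In mG4H 0 members were called, where 0.166% of all genes were called lower and 0.266% in either direction; at an unadjusted p under 0.05 there was 1, Bub1, beside 14% of all genes. In the average of both genotypes Ccne1 was again the only call, where 5.79% of all genes were called lower and 10.3% in either direction, and 5 members had an unadjusted p under 0.05, a smaller share than the 22.3% of all genes. The comparisons in the separate genotypes share no mice, but they share slides, and mice had siblings in other groups. The members also moved together from mouse to mouse, as described further on. The directions of the 33 members are therefore not 33 separate observations in either genotype.

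**Figure D1:**
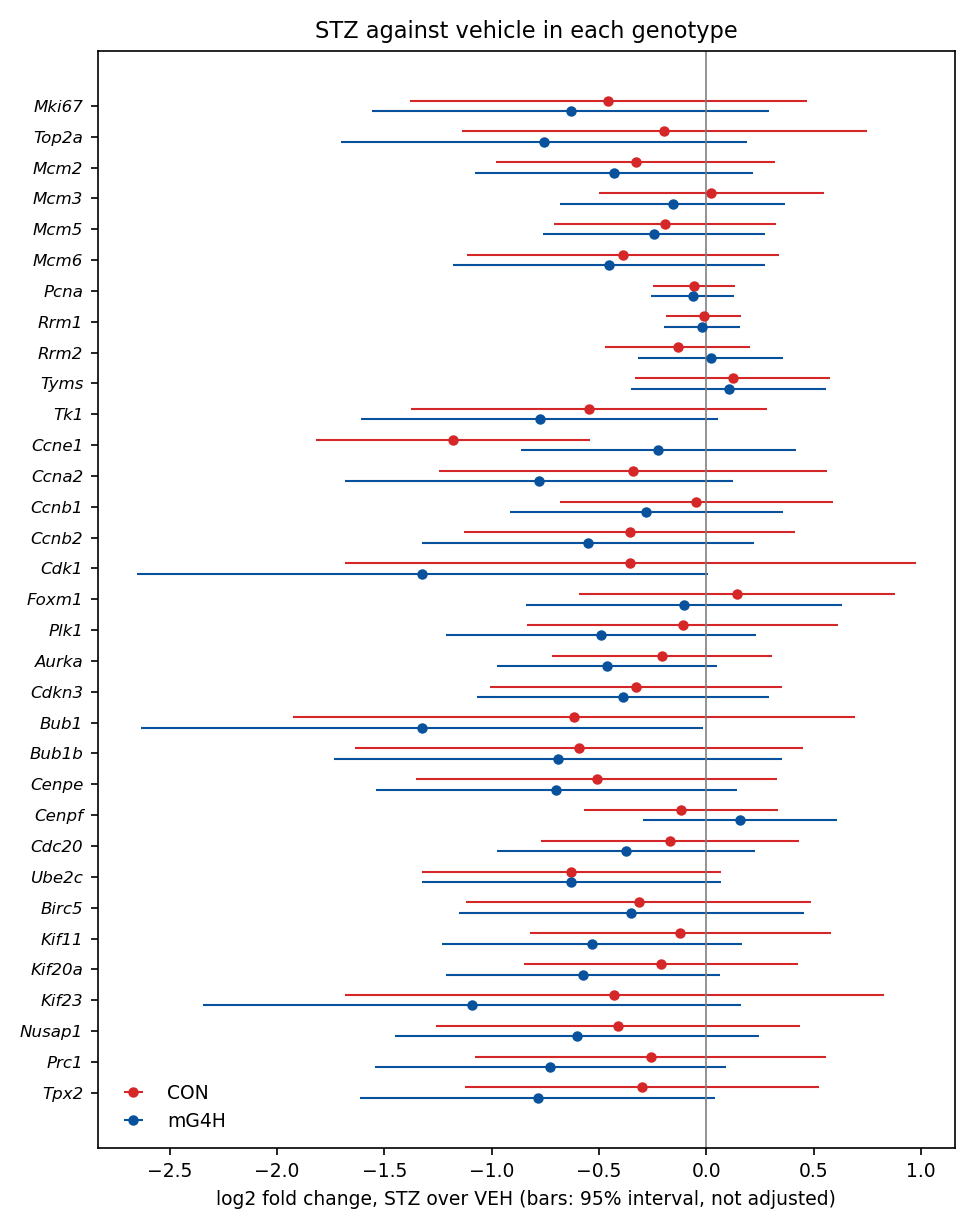
The log2 fold change of each of the 33 measured genes, STZ over VEH, in CON (red) and mG4H (blue) mice, with 95% intervals from limma that are not adjusted for the number of genes; genes are in order of role. Most points lie left of 0, and the CON interval of Ccne1 (-1.82 to -0.54) is the one that lies farthest from it.

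The slides did not carry the shift equally. Within slides 1, 2 and 3, each with 1 or 2 mice of a group, the median over the members was 0.059, -0.65 and -0.76 in CON, -0.46, 0.0092 and -1.28 in mG4H, and -0.19, -0.33 and -0.94 in the average of both genotypes. On slide 1, 13 of 33 members were negative in CON. Without CON STZ mouse 3, the CON median was -0.10.

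Among the 10 genes of DNA synthesis and licensing was the only call. Ccne1 encodes cyclin E1, which with CDK2 starts S phase. Its signal had a lowest, median and highest value of -0.40, -0.19 and 0.07 in CON VEH, and -3.25, -1.04 and -0.72 in CON STZ. It was -0.55, -0.19 and 0.08 in mG4H VEH, and -1.27, -0.44 and 0.28 in mG4H STZ. Thus every CON STZ mouse lay below every CON VEH mouse, which held for 1 of the 33 members and, with STZ lower, for 2.67% of all genes, while the mG4H groups overlapped. The log2 fold change was -1.18 ± 0.31 (SE) in CON, 2.26-fold lower (limma adjusted p = 0.0320), and -0.22 ± 0.31 (SE) in mG4H (adjusted p = 0.836). The difference between those effects was 0.95 ± 0.44 (SE), with a limma adjusted p of 1, so an effect of STZ on Ccne1 that differs by genotype was not shown.

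The Ccne1 call stood near the threshold. It was lost when any 1 CON VEH mouse was left out, with median scaling and without slide 4, and the adjusted p ranged from 0.0117 to 0.121 over 35 alternative settings, 27 of which kept the call. In the average of both genotypes Ccne1 fell by 0.70 ± 0.22 (SE; limma adjusted p = 0.0415, 0.0138 to 0.0838 over the settings), and 20 of 35 settings lost that call, among them slide as a block and leaving out any 1 CON VEH mouse, mG4H VEH mouse 1, 2, 3, 4 or 6, or mG4H STZ mouse 1, 3, 4 or 6. Mouse 4 of CON STZ, at -3.25, lay far below the next CON STZ mouse, at -1.22. A dimmer Ccne1 probe, well above background on 11 arrays, gave -0.93 in CON and 0.066 in mG4H. The probe used lies on mm9 chr7:38882937-38882960, as the array's header places it.

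The other 9 genes of this role did not pass. Tk1, the salvage enzyme thymidine kinase, had the next largest shift in the average of both genotypes, -0.66 ± 0.28 (SE; limma adjusted p = 0.155). Mcm2, Mcm3, Mcm5 and Mcm6, subunits of the replicative helicase, stood at -0.38, -0.07, -0.22 and -0.42. Pcna, the sliding clamp of DNA polymerase, was at -0.06 ± 0.07 (SE), and the ribonucleotide reductase subunits Rrm1 and Rrm2 were at -0.02 ± 0.06 and -0.06 ± 0.11 (SE). Tyms, thymidylate synthase, was the only member of the role above 0, at 0.11 ± 0.15 (SE). The 95% interval of the Rrm1 difference was narrow, from -0.19 to 0.16 in CON and from -0.20 to 0.15 in mG4H (log2).

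Mki67 and Top2a, the Ki-67 antigen of cycling cells and the topoisomerase that untangles chromosomes, both tended lower without passing. Mki67 had a lowest, median and highest value of 0.34, 1.20 and 1.91 in CON VEH, 0.01, 1.03 and 1.26 in CON STZ, 0.85, 1.26 and 1.80 in mG4H VEH, and -0.98, 0.40 and 2.71 in mG4H STZ. The STZ mice of both genotypes overlapped their controls, and the highest and the lowest mouse of all 24 were both mG4H STZ. The fold changes were -0.46 ± 0.45 (SE) in CON and -0.63 ± 0.45 (SE) in mG4H (limma adjusted p = 0.842 and 0.596). For Top2a they were -0.20 ± 0.46 and -0.76 ± 0.46 (SE). The probe used lies on mm9 chr7:142881591-142881650, and a second Mki67 probe gave -0.59 in the average of both genotypes, beside -0.55.

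Among the 8 genes of mitotic entry none passed, and Foxm1, the transcription factor of the G2 and M genes, was the only one above 0 in CON (0.14). Ccnb2, cyclin B2, had a lowest, median and highest value of -0.55, 0.08 and 0.84 in CON VEH, -0.98, -0.06 and 0.31 in CON STZ, -0.16, 0.10 and 0.60 in mG4H VEH, and -1.23, -0.87 and 1.53 in mG4H STZ. In mG4H STZ 4 mice lay below every mG4H VEH mouse and 1 lay above all of them. Its fold changes were -0.36 ± 0.37 and -0.55 ± 0.37 (SE). Ccna2 (cyclin A2, active in S phase and G2), Ccnb1 (cyclin B1), Plk1 and Aurka (kinases of centrosome and spindle) and Cdkn3 (a phosphatase of CDKs) lay between -0.56 and -0.16 in the average of both genotypes. Cdk1, the kinase that drives mitosis, had the widest interval, -0.35 ± 0.64 in CON and -1.32 ± 0.64 (SE) in mG4H, and its probe was well above background on only 4 of 6 mG4H STZ arrays, 5 of 6 CON VEH and 5 of 6 CON STZ arrays.

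The 6 kinetochore and checkpoint genes had the lowest median of any role, -0.62 in the average of both genotypes, and 3 of the 6 had an unadjusted p under 0.05, where 22.3% of all genes did. Ube2c, the ubiquitin-conjugating enzyme of the anaphase-promoting complex, had a lowest, median and highest value of -1.41, -1.18 and -0.62 in CON VEH, -2.30, -1.66 and -1.33 in CON STZ, -1.30, -1.16 and -0.91 in mG4H VEH, and -2.76, -2.06 and 0.19 in mG4H STZ. In CON, 1 STZ mouse reached into the VEH range, and in mG4H 4 STZ mice lay below all VEH mice. The fold change was -0.63 in each genotype and -0.63 ± 0.24 (SE) in their average (limma adjusted p = 0.0986). Bub1 and Cenpe, a checkpoint kinase and a kinetochore motor, stood at -0.97 ± 0.45 and -0.60 ± 0.29 (SE; adjusted p = 0.195 and 0.213). Bub1 was well above background on 3 of 6 mG4H STZ arrays, so its lowest values carry little weight. Bub1b (the checkpoint protein BubR1) and Cdc20 (the activator of the anaphase-promoting complex) stood at -0.64 and -0.27. The Bub1b probe was well above background on 5 of 6 mG4H STZ arrays. Over the 35 settings the average shift ran from -1.26 to -0.20 for Bub1 and from -0.86 to -0.21 for Bub1b. The median of this role thus rests partly on dim probes whose shifts moved with the settings. Cenpf, a large kinetochore protein, differed by only 0.02 ± 0.15 (SE).

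The 7 measured genes of spindle and cytokinesis were negative in each genotype and none passed. In the average of both genotypes they ranged from -0.33 (Kif11, the bipolar spindle motor, and Birc5, survivin, of the passenger complex) to -0.76 (Kif23, a motor of the central spindle). Tpx2 (an activator of Aurora A), Prc1 (which bundles midzone microtubules) and Nusap1 (a spindle protein) were at -0.54, -0.49 and -0.51, and Kif20a, another central spindle motor, was at -0.39. Kif11 was well above background on 3 of 6 mG4H STZ arrays. A second, dimmer Tpx2 probe gave -0.083.

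**Figure D2:**
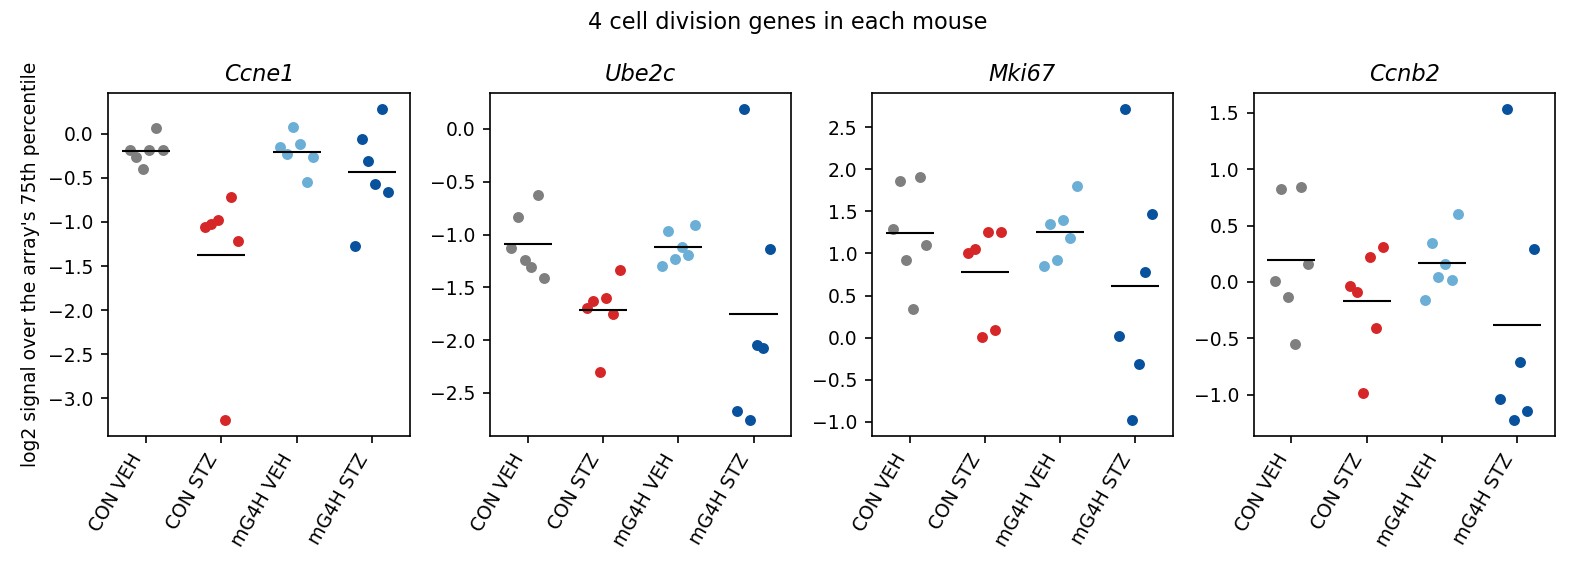
The log2 signal of Ccne1, Ube2c, Mki67 and Ccnb2 relative to the array's 75th percentile, 1 point per mouse, 6 mice per group; the line is the group mean. Ccne1 separates CON STZ from CON VEH (highest STZ mouse -0.72, lowest VEH mouse -0.40), and the other 3 genes show 1 mG4H STZ mouse above all others.

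The widest feature of these genes was the spread within the mG4H STZ group. The SD over its 6 mice was the largest of the 4 groups for 29 of 33 members, and for 48.8% of all genes. The median SD of the members was 1.01 there, beside 0.39 over all genes, and 0.45, 0.48 and 0.26 in CON VEH, CON STZ and mG4H VEH. Mouse 2 of mG4H STZ had the highest value of all 24 mice in 28 of 33 members, against 4.29% of all genes. Mouse 3 had the lowest in 18 of 33 (9.49% of all genes) and mouse 5 in 7 (11.4% of all genes).

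**Figure D3:**
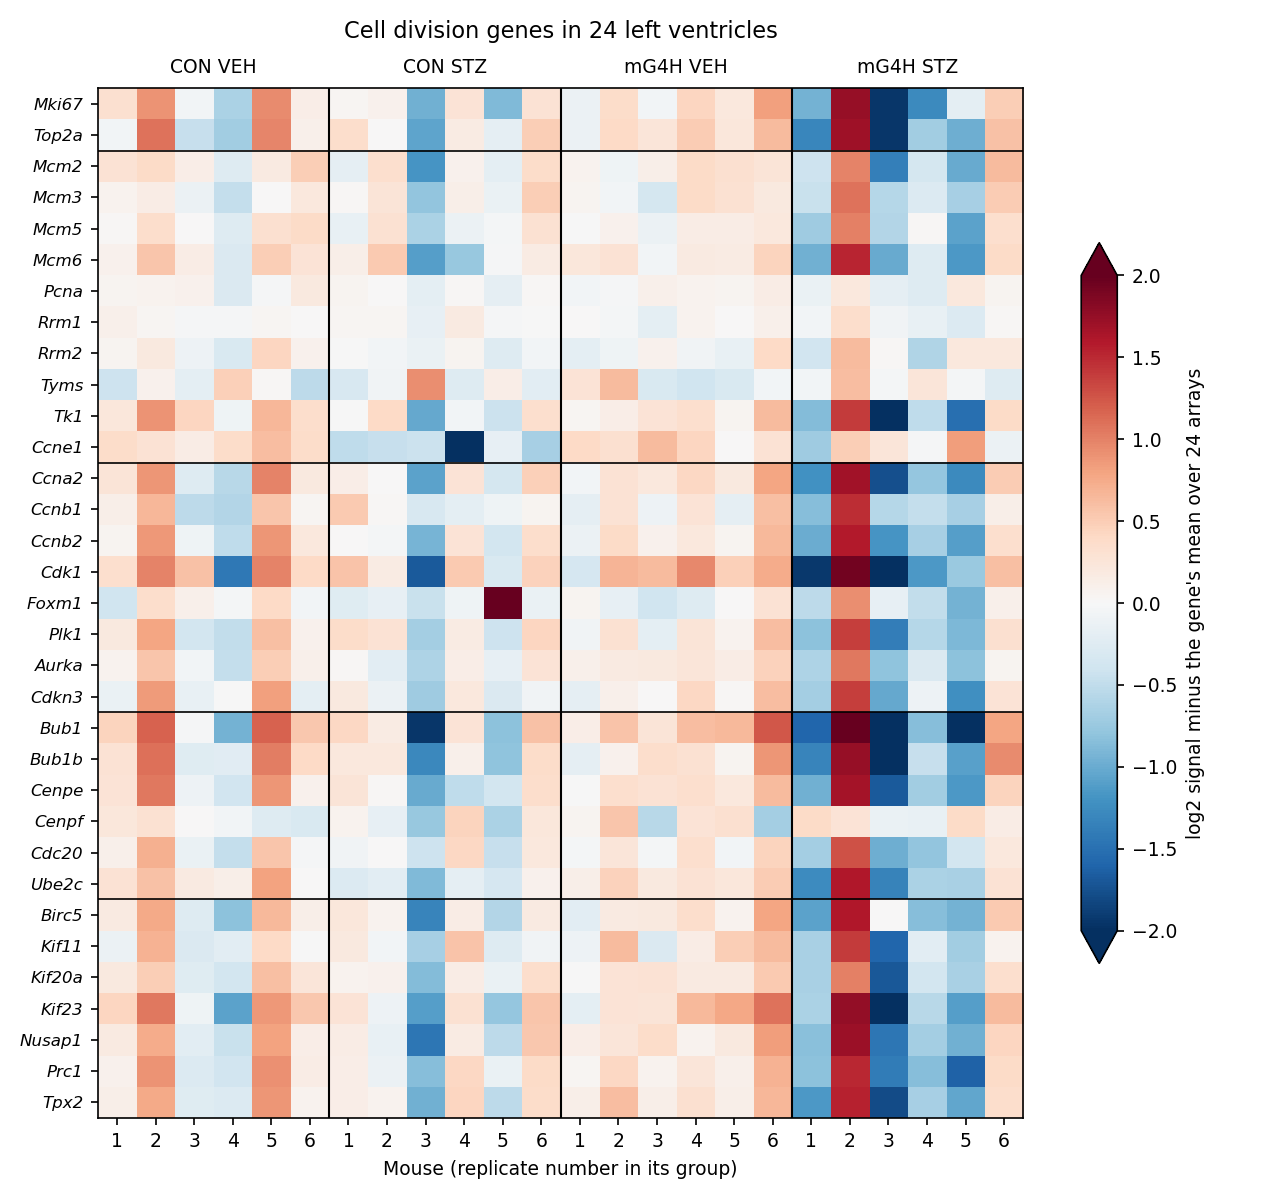
Each row is 1 of the 33 measured genes, in order of role, and each column 1 mouse; colour gives the log2 signal minus that gene's mean over the 24 arrays, with values beyond 2 in either direction drawn at the end of the scale. Mouse 2 of mG4H STZ is red and mouse 3 blue in most rows, while Tyms, Ccne1, Cenpf and Foxm1 follow other patterns.

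Averaged over the 33 genes, the deviation from the gene means was 0.18 ± 0.39 in CON VEH, -0.11 ± 0.37 in CON STZ, 0.21 ± 0.19 in mG4H VEH and -0.28 ± 0.93 in mG4H STZ (log2, SD, n = 6 each). Mice 1, 3, 4 and 5 of mG4H STZ stood at -0.78, -1.24, -0.50 and -0.77, below every VEH mouse of either genotype, the lowest of which was at -0.37. Mouse 6 was at 0.34 and mouse 2 at 1.28. In CON STZ, mouse 3 stood alone at -0.81, and the other 5 lay between -0.25 and 0.23.

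**Figure D4:**
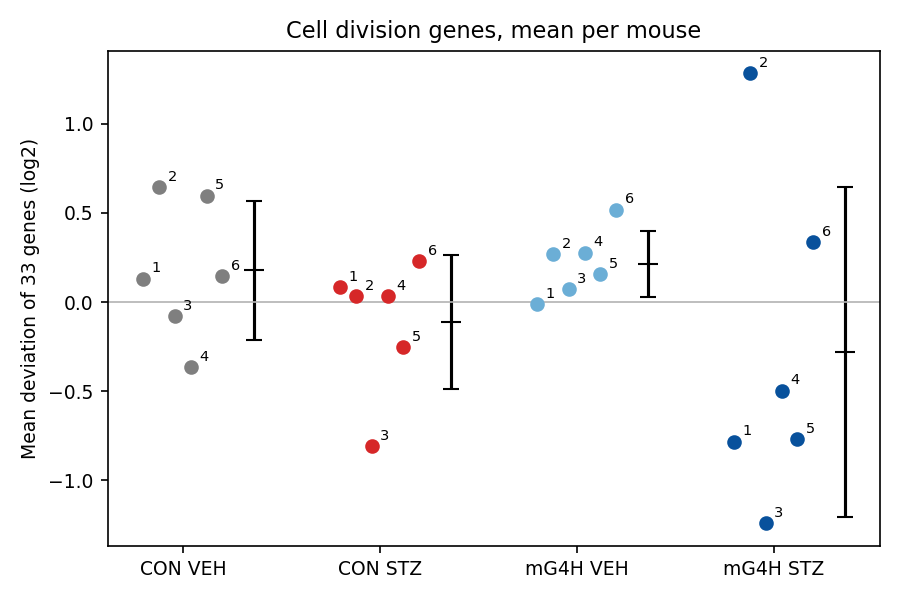
The mean over the 33 genes of the log2 signal minus the gene's mean, 1 point per mouse with its number in the group; bars show the group mean ± SD. The mG4H STZ mice run from -1.24 to 1.28, a wider range than in any other group.

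Calls beyond Ccne1 in the STZ comparisons appeared only when mouse 2 of mG4H STZ was left out, alone or with mouse 3. This mouse had the highest value in most of these same members, so leaving it out lowers their mG4H STZ means. The calls gained in this way are thus not separate support for a fall. Without mouse 2, the mG4H median was -0.83, and 2 members passed in mG4H. They were Aurka (-0.72, limma adjusted p = 0.0468) and Ube2c (-1.02, adjusted p = 0.0242), where 1.21% of all genes were called lower and 2.22% in either direction. Over all 35 settings the adjusted p in mG4H ran from 0.0468 to 0.927 for Aurka and from 0.0242 to 0.927 for Ube2c. In the average of both genotypes 12 members were then lower: Mcm6, Tk1, Ccne1, Ccna2, Ccnb2, Aurka, Bub1, Cenpe, Ube2c, Nusap1, Prc1 and Tpx2, where 7.09% of all genes were called lower and 13.2% in either direction. The smallest adjusted p among these was that of Ube2c, 0.00152 (0.00152 to 0.247 over all settings). Without mouse 3 instead, the mG4H median was -0.30, and Ccne1 lost its call in the average (limma adjusted p = 0.0553). When both mice were left out, a choice made after seeing the data, 5 members were lower in the average, Tk1, Ccne1, Aurka, Cenpe and Ube2c, where 5.66% of all genes were called lower and 10.4% in either direction, and 0 in mG4H, where 0.237% were called lower and 0.46% in either direction.

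The summed level of red blood cell markers stood at its extremes in the same pair of mice. Of 9 erythroid markers 6 had a measurable probe (Hba-a1, Hbb-b1, Alas2, Slc4a1, Klf1 and Spna1); the other 3, Epb42 and Ahsp among them, were well above background on at most 4 arrays. Their summed level, in multiples of the array's 75th percentile, was 324.5 to 500.1 in CON VEH, 209 to 391 in CON STZ, 382.7 to 573.6 in mG4H VEH and 31.49 to 1020 in mG4H STZ. The 1020 was mouse 2, and the 31.49 was mouse 3, the highest and the lowest of 24. Alas2, the first enzyme of heme synthesis in red cell precursors, was 4.52 (log2) in mouse 2 and -2.55 in mouse 3, while the mG4H VEH mice lay between 1.66 and 2.64. The globins Hba-a1 and Hbb-b1 had by far the highest signals and set most of the sum. Not every marker followed: Klf1 was -3.93 in mouse 2 and -3.79 in mouse 3, both within the mG4H VEH range. Slc4a1 was 0.97 in mouse 2, but its -2.67 in mouse 3 also lay within that range. The other low mG4H STZ mice, 1 and 5, had erythroid sums of 351.9 and 314.3, and CON STZ mouse 3 one of 352.8. In the summed level of 14 macrophage markers mouse 3 ranked 2 from the top (94.13) and mouse 2 ranked 17 (63.66). The part of these cells in the values of the cell division genes was not tested.

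**Figure D5:**
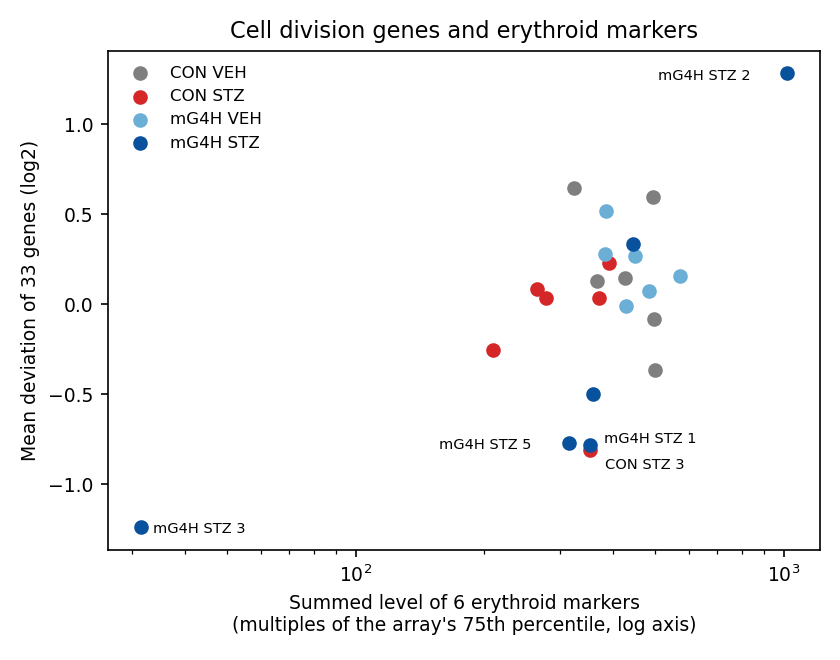
For each of 24 mice, the summed level of 6 erythroid markers (log axis, multiples of the array's 75th percentile) against the mean log2 deviation of the 33 cell division genes; colours are the 4 groups. Mouse 2 of mG4H STZ lies at the upper right (1020, 1.28) and mouse 3 at the lower left (31.49, -1.24), while the other 22 mice lie between 209 and 573.6.

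Between the genotypes no cell division gene passed. Under VEH the median log2 fold change of the members, mG4H over CON, was 0.03, with 20 positive and 13 negative, and single members lay between -0.17 and 0.21. No member passed, where 0.0815% of all genes were called, and at an unadjusted p under 0.05 there were 0 members, beside 2.87% of all genes. Within slide 2 that median was -0.45. Under STZ the median was -0.16, and 0.03 without mG4H STZ mouse 3, with 27 of 33 negative and 0 called (0.0106% of all genes), and 1 member, Ccne1, had an unadjusted p under 0.05 (0.94 ± 0.31, SE; limma adjusted p = 0.711), as did 3.55% of all genes. The difference between the STZ effects of both genotypes had a median of -0.19 over the members, and limma called 0 members and 0 of all genes (0% of 28235; 1 member and 501 genes, 1.77%, at an unadjusted p under 0.05). On slide 2 alone that median was 0.59. For Mki67 the difference between the STZ effects was -0.17, with a 95% interval from -1.48 to 1.13.

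The members moved together from mouse to mouse. With the group means removed, the median Pearson r over the 528 pairs of members was 0.84 across the 24 mice, and 393 pairs had r above 0.5. Without the highest and the lowest mouse the median r was 0.74. Of the 33, 26 had r above 0.8 with the mean of the other members, against 0.657% of all genes, whose median r was -0.14; the mice share slides, and no p is given. Ccna2, Top2a, Plk1, Ccnb2 and Tpx2 were closest to the mean of the others (r = 0.99, 0.98, 0.98, 0.98 and 0.98). Farthest from it were Tyms (-0.06), Ccne1 (-0.03), Cenpf (0.22), Foxm1 (0.38) and Pcna (0.57). Birc5 followed the others except in mouse 3 of mG4H STZ, where it stood at 0.18 while that mouse was low in most members; its r was 0.86 with all mice and 0.96 without mice 2 and 3. Among genes outside the lists, the 6 whose pattern was most like the mean of the members, with group and slide removed, were Ska1 (0.98), Spag5 (0.98), Cdca5 (0.98), Trim59 (0.96), Rad54l (0.95) and Fbxo5 (0.95). Ska1 and Spag5 encode spindle and kinetochore proteins, Cdca5 encodes sororin, which holds sister chromatids together, Rad54l a recombination factor and Fbxo5 an inhibitor of the anaphase-promoting complex. None of the 6 passed in an STZ comparison, with log2 fold changes of -0.81 to -0.30 in the average of both genotypes.

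With all mice, few other genes of the same machinery passed in an STZ comparison, and those few were lower after STZ. In the average of both genotypes the mitosis and replication genes were called lower at shares near that of all genes. Among all genes, 2.3% were called lower in CON, 5.79% in the average and 7.09% in the average without mouse 2 of mG4H STZ. Of 46 measured mitosis genes outside the list, 3 fell in CON: Spc24, a subunit of the NDC80 kinetochore complex, by 1.37 (limma adjusted p = 0.000187), Cep55, of the abscission bridge, by 0.51, and Cenpa, the centromeric histone H3, by 0.44. In mG4H 0 passed, and in the average 3 fell, Spc24 by 1.04, Cep55 by 0.47 and the histone chaperone Asf1b by 0.26; the median over the 46 was -0.24. The Spc24 values ran from 0.29 to 0.64 in CON VEH and from -1.32 to -0.51 in CON STZ, with no overlap, and from -0.37 to 0.02 and from -1.36 to -0.13 in mG4H VEH and STZ. Of 28 measured replication genes outside the list, 0 passed in either genotype and 2 fell in the average, among them Dut (dUTPase) by 0.50, with a median of -0.06. Among 18 E2F, retinoblastoma and DREAM genes 0 passed in any of the 3 STZ comparisons (4, 3 and 6 at an unadjusted p under 0.05, beside 14.3%, 14% and 22.3% of all genes), and the median in the average was 0.05. Without mouse 2 of mG4H STZ the average gave 9 lower of the 46 mitosis genes, 3 lower of the 28 replication genes and, of the 18 regulators, 3 lower and 2 higher. That mouse was the highest in most members, so these counts carry the limit given above.

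Brakes of the cell cycle split in direction. Of 12 inhibitors of cyclin-dependent kinases and growth arrest genes, 4 rose in the average of both genotypes: Cdkn1a (p21) by 1.33, Gadd45g by 0.81, Btg2, an antiproliferative transcription regulator, by 0.76 and Gadd45b by 0.48, where 4.51% of all genes were called higher. The Cdkn1a values ran from -0.79 to 0.19 in CON VEH and from 0.12 to 3.39 in CON STZ, and its 2 dimmer probes gave 0.77 and 0.37. In mG4H they ran from -0.48 to 0.44 under VEH and from -0.35 to 3.53 under STZ, with overlap. Cdkn1a was near the threshold in the average (limma adjusted p = 0.0453) and passed in neither genotype (0.155 in CON, 0.459 in mG4H). Another 2 of the 12 fell, Cdkn1c (p57) by 0.77 and Gadd45a by 0.42, where 5.79% of all genes were called lower. Cdkn1c lay between 2.88 and 3.25 in CON VEH and between 1.60 and 2.63 in CON STZ, with no overlap, and its fall in CON was 0.93 (limma adjusted p = 0.00158). Of 7 measured G1 cyclins and kinases, 1 fell in the average, Ccnd2 (cyclin D2), by 0.36. Without mouse 2 of mG4H STZ 3 fell, where 7.09% of all genes were called lower. That count rests on leaving out the mouse that was highest in most members.

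Markers of the cell types of the heart moved in both directions, and several of the counts below are near the shares over all genes. Among all genes, 4.51% were called higher and 5.79% lower in the average of both genotypes. Without mouse 2 of mG4H STZ, 7.09% were called lower. Of 12 fibroblast markers 3 rose in the average of both genotypes (Mfap5, Postn and Pdgfra), and their summed level was 633.3 to 742.9 in CON VEH, 723.5 to 930.1 in CON STZ, 604.6 to 814.5 in mG4H VEH and 641.5 to 847.9 in mG4H STZ. Of 15 macrophage markers 5 rose (Itgam, Lyve1, Mertk, Cd14 and Cd163). Cd163 was dim, well above background on 4 of 6 arrays in each group but CON STZ, and near the threshold (limma adjusted p = 0.0494). The sums of 14 macrophage markers were 60.74 to 68.49, 72.6 to 95.67, 57.06 to 67.76 and 63.66 to 94.13 in the same order. The Itgam probe used made up a large part of these sums, with group means of 4.87, 5.35, 4.79 and 5.09 (log2). The 2 dimmer Itgam probes gave 0.13 and -0.25. Of 12 endothelial markers 2 rose (Fabp4 and Vwf), and the 11 other than Fabp4 summed to 134.7 to 164.9, 124.1 to 170.7, 132.7 to 156.5 and 129.4 to 202.2; a marker with a value missing on any array was left out of a sum. Of 11 T and NK cell markers 2 fell, Cd3d by 0.87 and Cd3g by 1.59, both dim (4 fell without mouse 2 of mG4H STZ), with sums of 3.88 to 6.67, 3.55 to 5.90, 4.2 to 6.32 and 3.38 to 6.07. Of the 6 erythroid markers 1 fell, Spna1 (the file's name for erythroid spectrin), by 0.45, with a list median of -0.44. Smooth muscle and pericyte, neutrophil and B cell markers had 1 of 11 lower, 1 of 8 higher and 0 of 7 called in the average. None of the summed markers had a signal of 0. Of 12 cardiomyocyte markers 1 fell, Ckm, by 0.35. Which of these cells carried the cell division transcripts was not tested.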

How the data were processed

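Agilent Feature Extraction (version 10.5.1.1, per the file headers) gave the deposited signal intensity of 62976 spots on each of 24 one-colour arrays, with mm9 probe positions; this processed signal is already background-subtracted by the authors' scanner software, per the file headers. The submitters' processing notes also name limma. From these values, spots marked as outliers were dropped, log2 was taken, each array's 75th percentile was subtracted and spots of a probe were averaged (55681 probes). Probes well above background on 6 or more arrays were kept (39766), and the brightest probe stood for its gene (28235 genes). All 24 arrays entered 1 fit of group means in limma 3.58.1 (R 4.3.3), with empirical Bayes, two-sided tests, Benjamini-Hochberg adjustment over all genes and a threshold of 0.05. Summed marker levels add the unlogged scaled signals of markers with a value on every array. The code was tested on simulated data. No gene list was tested as a set. The members, lists and tests were chosen with earlier results of these data known. Named genes were all members, and up to 4 called genes of each other list, with more where a count of 5 or fewer is spelled out; the 6 most alike genes by correlation; and Slc2a4. Some list genes are not reported here by name. The number of arrays limits the precision. Alternatives covered the scaling, background correction, probe filter and choice, slide, prior and single mice.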

Additional observations from a re-analysis of the deposited data

Results flagged for a closer look

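In 132 groups of 6 values (33 genes in 4 groups), 6 held a mouse whose gap to its nearest neighbour was too large a share of the group's range by Dixon's 95% limit for 6 values; chance alone marks about 1 group in 20. Ccne1 in CON STZ mouse 4 was at -3.25, and the other 5 CON STZ mice lay between -1.22 and -0.72. Foxm1 in CON STZ mouse 5 was at -0.46, the highest of its group, while its mean over that group was -2.54. CON STZ mouse 3 stood apart in Mcm2, at -2.01, the lowest of the group, and in Tyms, at -1.42, the highest. Cdk1 was -5.19 in CON VEH mouse 4, where its probe was not well above background, and -4.11 in mG4H VEH mouse 1. The mG4H STZ group, the widest for most members, had no such mouse.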

How the results depend on the processing

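No direction of a called member reversed under any of the settings run. With median scaling and with slides 1 to 3 only, 0 members passed in CON and 0 in the average of both genotypes. In that average 0 passed also without a filter on dim probes, with the mean of all kept probes and with slide as a block, while 5 passed without both mG4H STZ mice 2 and 3. The number of members called ran from 0 to 1 in CON, from 0 to 2 in mG4H and from 0 to 12 in the average when each mouse was left out in turn, and stayed 0 in the comparisons of genotype and of the STZ effects. The medians ran from -0.38 to -0.10 in CON, from -0.83 to -0.30 in mG4H, from -0.53 to -0.31 in the average, from -0.08 to 0.15 between genotypes under VEH, from -0.49 to 0.03 under STZ and from -0.53 to -0.02 for the difference of the STZ effects. Within single slides the median moved to -1.28 in mG4H and -0.94 in the average on slide 3, and to 0.59 for the difference of the effects on slide 2. Median scaling moved the median of all genes in mG4H from 0.061 to -0.048 and that of the members from -0.49 to -0.60, and it left 75 genes called in CON, 6 in mG4H and 391 in the average, from 1117, 75 and 2908. Over all genes, slides 1 to 3 gave 642 in CON and 23 in mG4H. In mG4H there were 117 with quantile normalization, 31 without a filter, 43 with the mean of probes, 48 with slide as a block and 203 with a trended robust prior, and without mice 2 and 3 there were 130, beside 1686 in CON. Between genotypes under VEH, 23 became 8 with median scaling, 14 with slides 1 to 3 and 40 without these 2 mice; under STZ, 3 became 0 with normexp, 1 with the mean of probes and 1 without these 2 mice. The difference of the STZ effects had 1 gene with slide as a block, the trended robust prior or slides 1 to 3. The cause of these changes was not tested. With the replicate number as a paired block, 1 member passed in CON, 0 in mG4H and 1 in the average, with medians of -0.30, -0.49 and -0.39; the replicate block changed no call among the members. Same-numbered mice had a median correlation of 0.0036 over 36 pairs (-0.597 to 0.662), and other pairs of mice -0.021. No pairing by number was seen, but with this spread a weak one could not have been seen. Dim probes (Bub1, Bub1b, Cdk1, Kif11, Kif23) limit the lowest values.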
